A study of Mus musculus with 9 samples.

Results

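Collagens are the main structural proteins of the extracellular matrix. Each molecule is a helix wound from alpha chains in which glycine recurs at a fixed spacing, and the classes differ in how these helices assemble: fibrillar collagens form the cables of scar tissue, type IV collagens the sheets of basement membranes, and type VI collagens beaded microfibrils around cells. In the liver, type I and type III fibrils made mostly by activated stellate cells and portal fibroblasts are the hallmark of fibrosis, and TGF-beta is the best-known signal that raises their genes.

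The collagen chains described here are the genes whose symbol is Col, a number, the letter a and a number. There were 44 of them among the 34745 genes of the deposited table. The rule used no measured value, but members were chosen with earlier results of these data known. By structure they comprise 11 fibrillar chains, 6 basement membrane network chains (type IV), 6 beaded filament chains (type VI), 9 FACIT chains (fibril-associated collagens with interrupted helices), 2 multiplexins (types XV and XVIII), 3 short chains, 4 transmembrane chains, and 3 others (the anchoring fibril chain Col7a1, with Col26a1 and Col28a1).

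RNA sequencing of messenger RNA was carried out on liver of C57BL/6 mice aged 12 weeks, with 3 samples in each of 3 groups, and the labels name hepatocyte as the cell type. KO-CCL4 samples (replicates 72, 75 and 79) carry the genotype KO, read as the Tgfbr2HKO animals of the series, and received carbon tetrachloride (CCl4), a solvent that hepatocytes convert into a toxic radical. WT-CCL4 samples (replicates 11, 12 and 13) carry the genotype WT, read as the Tgfbr2f/f animals, whose gene for the type 2 TGF-beta receptor is floxed, and received the same agent. WT-NC samples (replicates 1, 2 and 3) carry the genotype WT and the treatment NC. CCl4 was given in olive oil into the peritoneum at 0.25 ml/kg, 2 times a week over 4 weeks. What HKO and NC stand for, which driver any Cre recombinase had and which exons were removed is stated in none of the labels, and the gene-level count of Tgfbr2 would include exons outside a deleted stretch. Untreated KO animals are not analysed here, so whether genotype alters the response to CCl4 was not tested as an interaction.

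The coding sequences show what sets the classes apart. In the listed stretches of 24 codons the glycine codons (GGN) that open each triplet of the helix are in capitals. Glycine codons at other positions, as in Col3a1, are left in lower case. Those of Col1a1 and Col3a1 are the start of the long unbroken helix of a fibrillar chain, Col6a5 and Col18a1 are the chains with the most contrasting values below, and Col4a1 is shown across an interruption typical of type IV, where 2 codons break the spacing.

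Col1a1 coding: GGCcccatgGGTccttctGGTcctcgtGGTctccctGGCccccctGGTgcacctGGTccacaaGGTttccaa
Col3a1 coding: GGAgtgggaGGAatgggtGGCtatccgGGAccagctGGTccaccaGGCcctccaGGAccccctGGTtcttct
Col6a5 coding: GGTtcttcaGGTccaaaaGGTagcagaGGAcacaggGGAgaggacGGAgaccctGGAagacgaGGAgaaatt
Col18a1 coding: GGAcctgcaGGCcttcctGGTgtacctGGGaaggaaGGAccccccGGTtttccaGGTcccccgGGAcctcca
Col4a1 coding: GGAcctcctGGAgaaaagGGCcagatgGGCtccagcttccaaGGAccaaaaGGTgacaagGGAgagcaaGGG

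In the longest protein-coding transcripts of GENCODE M21 (GRCm38), the longest unbroken run of glycine triplets held between 337 and 344 triplets in 9 of the 11 fibrillar chains, with 338 in Col1a1 and 344 in Col3a1. Col24a1 and Col27a1, the other fibrillar chains, had runs of 216 and 217. In type IV chains the longest run held between 39 triplets (Col4a3) and 66 triplets (Col4a2), and each helix was split into 23 to 27 runs. The longest run was 87 triplets in Col6a1 and Col6a2, 37 in Col6a5 and 30 in Col18a1, whose helix was split into 17 runs.

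Of the 44 chains, 35 had an entry in the RefSeq promoter table (GRCm38.p6). The 120 bases upstream of the start site are printed for 4 genes whose RefSeq and deposited starts coincide, Col3a1, Col5a1 and Col6a5, which were higher in WT-CCL4 than in WT-NC, and Col5a3, which was lower. Capitals mark the CCAAT box, the TATA box (written TATAAA) and the GC box (written GGGCGG) on either strand. The capitals in Col5a3 are GC boxes read on the other strand.

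Col3a1 promoter, chr1:45311418-45311537, plus strand: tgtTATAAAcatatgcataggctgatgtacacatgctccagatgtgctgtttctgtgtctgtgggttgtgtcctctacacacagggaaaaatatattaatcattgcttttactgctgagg
Col5a1 promoter, chr2:27886305-27886424, plus strand: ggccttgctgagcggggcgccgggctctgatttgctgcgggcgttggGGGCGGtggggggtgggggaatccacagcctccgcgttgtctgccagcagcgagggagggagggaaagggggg
Col6a5 promoter, chr9:105960644-105960763, minus strand: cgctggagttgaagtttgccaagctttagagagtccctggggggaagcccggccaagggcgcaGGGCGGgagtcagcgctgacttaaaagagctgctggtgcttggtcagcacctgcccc
Col5a3 promoter, chr9:20815068-20815187, minus strand: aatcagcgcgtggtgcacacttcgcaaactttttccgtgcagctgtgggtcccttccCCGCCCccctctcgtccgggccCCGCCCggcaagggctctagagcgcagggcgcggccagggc

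Within 250 bases upstream, GGGCGG was present in 22 of 38 collagen promoters and in 32.7% of 32851 promoters of all genes, CCAAT in 13 of 38 and 33.8%, and TATAAA in 5 of 38 and 12.4%. These matches describe letters and were not tested as binding sites.

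Libraries held between 16447353 and 20373585 counts, so a count of 3 in a library stood for 0.141 to 0.207 CPM (counts relative to library size, after TMM scaling between libraries). The targeted gene Tgfbr2 had 23.5, 69.9 and 28.3 CPM in KO-CCL4 72, 75 and 79, 127, 90.5 and 75.2 CPM in WT-CCL4 11, 12 and 13, and 31.5, 30.2 and 38.6 CPM in WT-NC 1, 2 and 3. KO-CCL4 75 stood apart from the other libraries labelled KO, with a Tgfbr2 level close to WT-CCL4 13. The variance between its counts and those of KO-CCL4 72 was 186 times that of count sampling (chi-square over degrees of freedom). For KO-CCL4 75 and 79 it was 143 times, and for KO-CCL4 72 and 79 it was 13.8 times. These values do not settle whether the genotype label of KO-CCL4 75 is right, and every KO-CCL4 mean and fold change over all libraries rests on that label. The main results on KO-CCL4 are therefore given with and without the library labelled KO-CCL4 75. The mitochondrial share of counts also moved with the groups, at 19.3% to 21.0% in KO-CCL4, 25.4% to 26.3% in WT-CCL4 and 9.13% to 12.0% in WT-NC, and its part in the results was not tested. Hepatocyte markers, 10 genes led by Alb, summed to between 41093 and 122234 CPM, but markers of stellate, endothelial and macrophage cells were also present in every library, so the values are those of a mixture of cells. In such bulk samples, fewer cells of a type and less RNA per cell cannot be told apart.

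The make-up of the collagen transcripts differed between groups before any test is applied to single chains. On the FPKM scale (the authors' fragments per kilobase of gene and per library total), the 44 chains summed to 80.7, 213 and 97.5 FPKM in KO-CCL4 72, 75 and 79, to 394, 276 and 218 FPKM in WT-CCL4 11, 12 and 13, and to 71.4, 68.6 and 81.0 FPKM in WT-NC 1, 2 and 3. Sums, shares and orders of chains on this scale rest on the authors' gene lengths, which were not checked. In the sums of all 44 chains WT-CCL4 and WT-NC did not overlap. KO-CCL4 72 and 79 lay near WT-NC there, while KO-CCL4 75 lay just under the lowest WT-CCL4 library. Without Col18a1 the sums were 34.1, 186 and 54.6 FPKM in KO-CCL4 72, 75 and 79. They were 378, 251 and 192 FPKM in WT-CCL4 11, 12 and 13, and 19.5 to 25.0 FPKM in WT-NC. KO-CCL4 72 and 79 were thus above every WT-NC library when Col18a1 was left out. Fibrillar chains made up 14.0%, 41.7% and 22.2% of collagen FPKM in KO-CCL4 72, 75 and 79, 54.9%, 48.1% and 42.5% in WT-CCL4, and 14.6%, 14.6% and 15.5% in WT-NC. Col18a1 alone made up 57.7%, 12.3% and 44.0% in KO-CCL4, 3.83%, 8.83% and 12.0% in WT-CCL4, and 66.3%, 71.6% and 69.1% in WT-NC. WT-NC liver was thus dominated by 1 multiplexin chain, and WT-CCL4 liver by fibrillar chains.

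**Figure D1:**
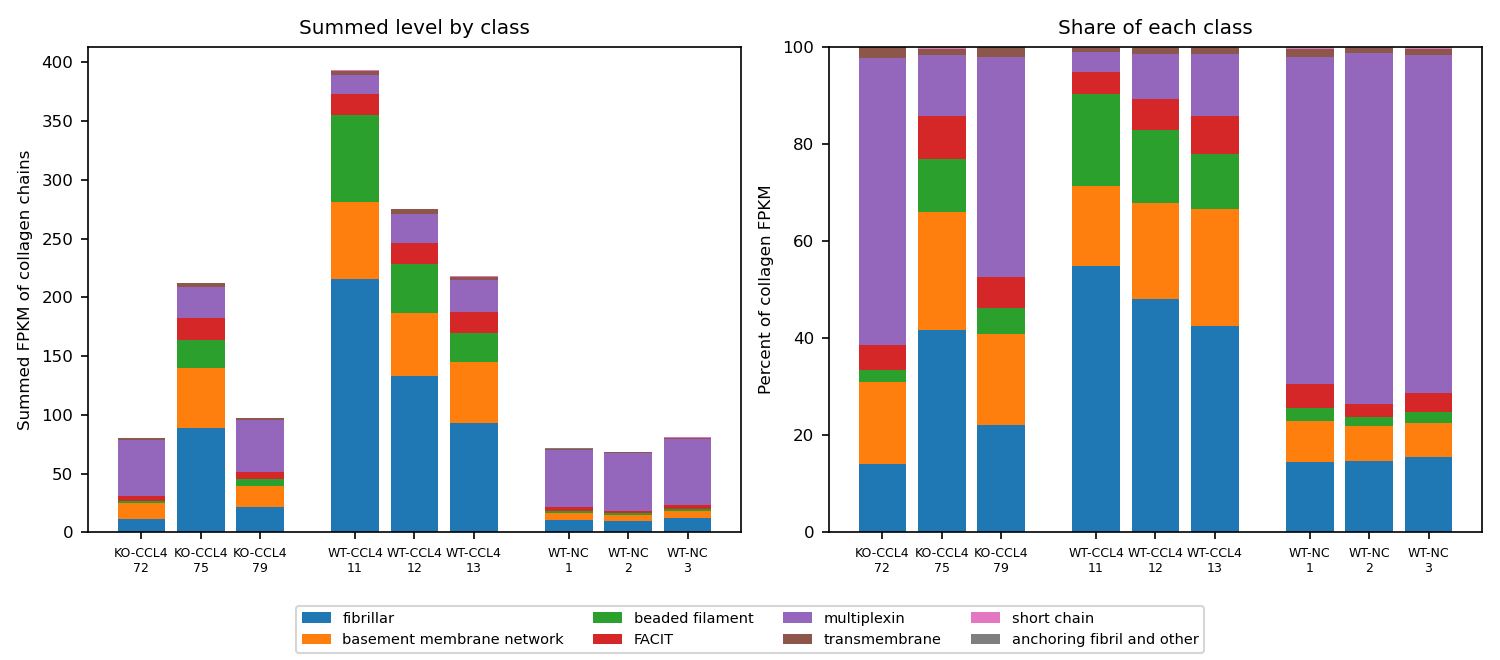
Summed FPKM of the collagen chains (left) and percent of collagen FPKM (right) for each library, stacked by structural class, with KO-CCL4, WT-CCL4 and WT-NC from left to right. Multiplexins fill most of the bars of WT-NC and 59.2% of KO-CCL4 72, and fibrillar chains fill 42.5% to 54.9% of the WT-CCL4 bars.

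The highest chain was Col18a1 in KO-CCL4 72 and 79 and in every WT-NC library, and Col3a1 in KO-CCL4 75 and in every WT-CCL4 library. In KO-CCL4 the order of mean levels was Col18a1 (38.5 FPKM), Col3a1 (16.5), Col4a1 (15.2) and Col4a2 (11.2), but Col3a1 exceeded Col4a1 in 1 of the 3 libraries. In WT-CCL4 the order was Col3a1 (74.0 FPKM), Col1a1 (33.9), Col4a1 (30.9), Col4a2 (23.1), Col1a2 (22.9) and Col18a1 (21.9), and in that list Col3a1 and Col4a1 were above their next neighbour in all 3 libraries. In CPM, which are not divided by length, the WT-CCL4 means were 320 for Col1a2, 203 for Col1a1 and 188 for Col4a1. In WT-NC it was Col18a1 (50.8 FPKM), Col5a3 (6.19), Col4a1 (2.85) and Col4a2 (2.52), and Col18a1 and Col5a3 were above the next chain in all 3 libraries. Chains at 1 FPKM or more numbered 10, 16 and 15 in KO-CCL4 72, 75 and 79, 20, 18 and 16 in WT-CCL4 11, 12 and 13, and 9, 7 and 7 in WT-NC 1, 2 and 3.

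CCl4 in WT animals was accompanied by higher levels of most chains that could be tested. Counts of 14134 genes, among them 31 collagen chains, were tested by edgeR (quasi-likelihood, Benjamini-Hochberg), and a change is called at an adjusted p under 0.05. In WT-CCL4 against WT-NC, 20 chains rose and 2 fell (Col5a3 and Col18a1), 71.0% of those tested, where 54.4% of all genes tested were called, 29.5% rising and 25.0% falling. The median log2 fold change was 2.71 over the tested chains and 0.04 over all genes tested. Libraries of WT-CCL4 lay wholly above WT-NC for 23 chains and wholly below for 4, against 34.7% and 31.6% of all genes. By class, 7 of 9 tested fibrillar chains rose and 1 fell, 4 of 6 basement membrane chains rose, 5 of 5 beaded filament chains rose, 3 of 5 FACIT chains rose, 1 of 2 transmembrane chains rose and 1 of 2 multiplexins fell.

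The KO-CCL4 mean lay between the other group means for 23 of the 24 chains named by level or call (all but Col15a1). This mean pools KO-CCL4 75 with KO-CCL4 72 and 79, and the share of all genes with such a mean was not computed. Without KO-CCL4 75, Col27a1 and Col6a6 were outside as well. Their KO-CCL4 means were then 37.3 and 0.848 CPM, against WT-NC means of 31.2 and 1.09 CPM. The number of calls depended on single libraries, among them KO-CCL4 75. Against WT-CCL4, 2 chains fell in KO-CCL4 (Col6a5 and Col6a6) and 0 rose, 6.45% of those tested, where 5.07% of all genes were called, 1.61% falling and 3.46% rising. At an unadjusted p under 0.05 edgeR counted 14 chains lower and 2 higher, DESeq2 called 6 lower and 1 higher, and limma on log2(FPKM + 1) called 1 lower and 0 higher. Over all genes, 4466 of 14134 had an unadjusted p under 0.05 in edgeR. DESeq2 called 1258 lower and 1512 higher among 14825 genes with an adjusted p, and limma 395 and 306 among 10987. The unadjusted and DESeq2 counts of gene lists given below for this comparison have the same background. The calls of Col6a5 and Col6a6 were also made without WT-CCL4 13, and 0 chains fell when KO-CCL4 72 or 79, WT-CCL4 11 or 12, or any WT-NC library was left out. Without KO-CCL4 75, 18 chains fell and 3 rose (Col5a3, Col18a1 and Col27a1), 67.7% of those tested, where 37.7% of all genes were called, 20.4% falling and 17.2% rising. The median log2 fold change of the chains was -0.86 with this library and -1.43 without it, against -0.03 over all genes tested with it. KO-CCL4 libraries lay wholly below WT-CCL4 for 13 chains and wholly above for 0, against 15.8% of all genes in either direction, and without KO-CCL4 75 for 23 and 5 chains, against 35.3% and 31.7%.

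Against WT-NC, 14 chains rose in KO-CCL4 and 0 fell, 45.2% of those tested, where 23.0% of all genes were called, 14.0% rising and 8.98% falling. At an unadjusted p under 0.05 edgeR counted 19 higher and 2 lower, DESeq2 called 17 higher and 0 lower, and limma on log2(FPKM + 1) called 4 higher and 0 lower. Over all genes, 5551 of 14134 had an unadjusted p under 0.05 in edgeR. DESeq2 called 2769 higher and 1731 lower among 15980 genes with an adjusted p, and limma 696 and 1015 among 10987. Without KO-CCL4 75, 9 chains rose and 0 fell, 29.0% of those tested, where 17.3% of all genes were called, 9.93% rising and 7.37% falling. Libraries of KO-CCL4 lay wholly above WT-NC for 12 chains and wholly below for 2, against 23.3% and 21.4% of all genes, and without KO-CCL4 75 for 13 and 2 chains, against 28.7% and 26.0%. Of the 14, Col4a1, Col4a2, Col4a5 and Col13a1 kept their call in each of the 9 fits that leave out a library, and 5 chains rose when any WT-NC library was left out. The median log2 fold change of the chains was 1.35 with this library and 1.06 without it. These comparisons share their WT-CCL4 or WT-NC libraries, so their values are not independent of each other.

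**Figure D2:**
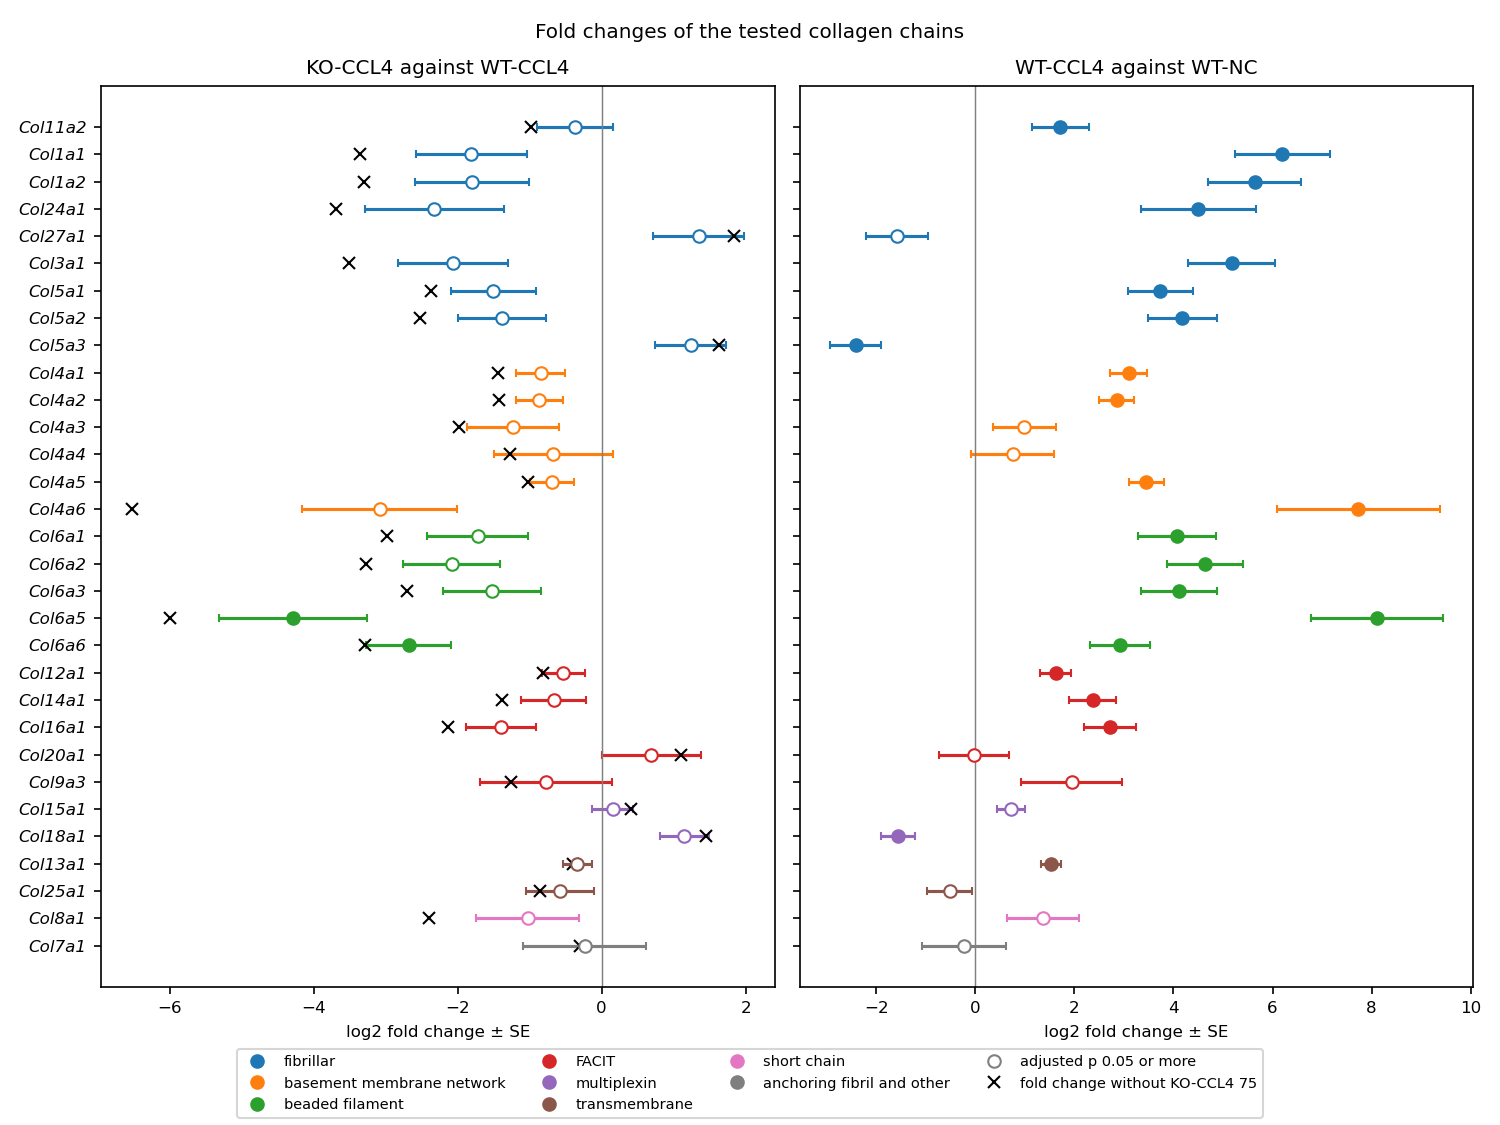
Log2 fold change ± SE of the 31 tested chains, grouped by class, in KO-CCL4 against WT-CCL4 (left) and WT-CCL4 against WT-NC (right). Filled points have an adjusted p under 0.05, and crosses, in the left panel only, give the fold change without KO-CCL4 75. In the left panel only Col6a5 and Col6a6 are filled, and in the right panel 22 points are filled, of which Col5a3 and Col18a1 lie below 0.

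The chains of type I and type III fibrils differed widely between and within groups. Col1a1 (ENSMUSG00000001506, chr11:94936224-94953042, mm10), the major chain of type I collagen, had 9.48, 133 and 30.1 CPM in KO-CCL4 72, 75 and 79, 304, 181 and 123 CPM in WT-CCL4 11, 12 and 13, and 2.52, 3.03 and 2.72 CPM in WT-NC 1, 2 and 3. Col1a2 (chr6:4504814-4541544), its partner chain, had 17.0, 211 and 47.5 CPM in KO-CCL4, 477, 293 and 190 CPM in WT-CCL4, and 9.90, 4.55 and 4.80 CPM in WT-NC. Col3a1 (ENSMUSG00000026043, chr1:45311538-45349706), which forms type III collagen on its own, had 28.1, 372 and 91.8 CPM in KO-CCL4, 980, 619 and 458 CPM in WT-CCL4, and 23.5, 15.4 and 18.1 CPM in WT-NC. For each of these chains KO-CCL4 72 was the lowest and KO-CCL4 75 the highest of its group, every WT-CCL4 library was above every WT-NC library, and WT-CCL4 11 was the highest of all.

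In WT-CCL4 against WT-NC, Col1a1 rose by 6.20 ± 0.96 on the log2 scale (SE, adjusted p = 0.00133), Col1a2 by 5.64 ± 0.94 and Col3a1 by 5.17 ± 0.88, and these calls held with each library left out in turn. Between KO-CCL4 and WT-CCL4 the log2 fold changes were -1.81 ± 0.77 for Col1a1 (adjusted p = 0.146), -1.80 ± 0.79 for Col1a2 (adjusted p = 0.154) and -2.06 ± 0.76 for Col3a1 (adjusted p = 0.109), which did not pass. Without KO-CCL4 75 they were -3.35, -3.31 and -3.51, and the adjusted p lay between 0.00219 and 0.00362. Compared with WT-NC, KO-CCL4 was higher in all 3 chains: Col1a1 rose by 4.38 ± 0.89, Col1a2 by 3.84 ± 0.87 and Col3a1 by 3.11 ± 0.80, and without KO-CCL4 75 by 2.84, 2.33 and 1.66, which also passed. These calls were made in 8, 7 and 6 of the 9 fits that leave out a library, with adjusted p up to 0.051, 0.0693 and 0.0918, and limma on log2(FPKM + 1) called none of the fibrillar chains in this comparison.

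The Col1a1 level differed 14.1 times between the lowest and highest KO-CCL4 library, but the proportion of the type I chains differed far less. The FPKM ratio of Col1a1 to Col1a2 was 1.42 ± 0.10 in KO-CCL4, 1.48 ± 0.03 in WT-CCL4 and 1.16 ± 0.50 in WT-NC (SD, n = 3 each), where the low counts of WT-NC gave a wide spread. Col3a1 over Col1a1 was 1.90 ± 0.09 in KO-CCL4, 2.23 ± 0.17 in WT-CCL4 and 4.53 ± 1.39 in WT-NC. Every WT-NC library was above every CCl4-treated library in this last ratio, so Col3a1 exceeded Col1a1 most in WT-NC. The size of each ratio rests on the authors' gene lengths, but its differences between libraries do not.

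Type V collagen, which sits inside type I fibrils and limits their diameter, divided into chains with opposite changes. Col5a1 had 5.72, 26.8 and 9.62 CPM in KO-CCL4 72, 75 and 79, 53.4, 37.4 and 29.0 CPM in WT-CCL4 11, 12 and 13, and 4.78, 1.17 and 2.99 CPM in WT-NC 1, 2 and 3. Col5a2 (chr1:45374321-45503282) had 8.05, 55.1 and 15.7 CPM in KO-CCL4, 98.3, 60.4 and 47.4 CPM in WT-CCL4, and 4.05, 2.69 and 4.59 CPM in WT-NC. Col5a3 (ENSMUSG00000004098, chr9:20770050-20815067), a less widespread chain, had 29.5, 8.01 and 24.9 CPM in KO-CCL4, 14.1, 7.41 and 4.90 CPM in WT-CCL4, and 40.1, 51.6 and 49.4 CPM in WT-NC. Col5a1 and Col5a2 were highest in WT-CCL4 and Col5a3 was highest in WT-NC, with no overlap between those groups in either direction, and KO-CCL4 75 fell within the WT-CCL4 range of Col5a2 and Col5a3.

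In WT-CCL4 against WT-NC, Col5a1 rose by 3.74 ± 0.66 and Col5a2 by 4.18 ± 0.69, while Col5a3 fell by 2.42 ± 0.51 on the log2 scale (adjusted p = 0.00403). Between KO-CCL4 and WT-CCL4 the log2 fold changes were -1.50 for Col5a1 (adjusted p = 0.124), -1.38 for Col5a2 (adjusted p = 0.156) and 1.24 for Col5a3 (adjusted p = 0.127). Without KO-CCL4 75 all 3 passed, at -2.37 for Col5a1, -2.53 for Col5a2 and 1.63 for Col5a3 (adjusted p = 0.00856). Compared with WT-NC, in KO-CCL4 Col5a1 rose by 2.24 ± 0.63 and Col5a2 by 2.79 ± 0.66, and without KO-CCL4 75 their values were 1.36 (adjusted p = 0.0842) and 1.65 (adjusted p = 0.0208). Col5a3 stood at -1.18 (adjusted p = 0.104) in that comparison.

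Among the remaining fibrillar chains, Col27a1, a chain of the shorter helix type known from cartilage, had 42.4, 5.33 and 32.2 CPM in KO-CCL4 72, 75 and 79, 7.03, 11.2 and 13.1 CPM in WT-CCL4 11, 12 and 13, and 21.3, 26.2 and 46.1 CPM in WT-NC 1, 2 and 3. Like Col5a3, it was higher in KO-CCL4 72 and 79 than in every WT-CCL4 library, and KO-CCL4 75 had the lowest value of all. Its log2 fold change was -1.58 ± 0.63 in WT-CCL4 against WT-NC (adjusted p = 0.0595). There DESeq2, and edgeR without KO-CCL4 75, called Col27a1 lower, while limma did not call it. In KO-CCL4 against WT-CCL4 it was 1.35 ± 0.63 (adjusted p = 0.174), and 1.84 without KO-CCL4 75 (adjusted p = 0.00493). Col24a1, the other short-helix chain, averaged 0.805 ± 0.857 CPM in KO-CCL4, 4.14 ± 2.22 CPM in WT-CCL4 and 0.160 ± 0.277 CPM in WT-NC (SD, n = 3 each), and rose by 4.50 ± 1.15 in WT-CCL4 against WT-NC. Col11a2, a chain of the cartilage type XI, rose there by 1.72 ± 0.57, to 2.97 ± 1.25 CPM in WT-CCL4, against 0.897 ± 0.507 CPM in WT-NC, a call made in 6 of the 9 fits that leave out a library.

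**Figure D3:**
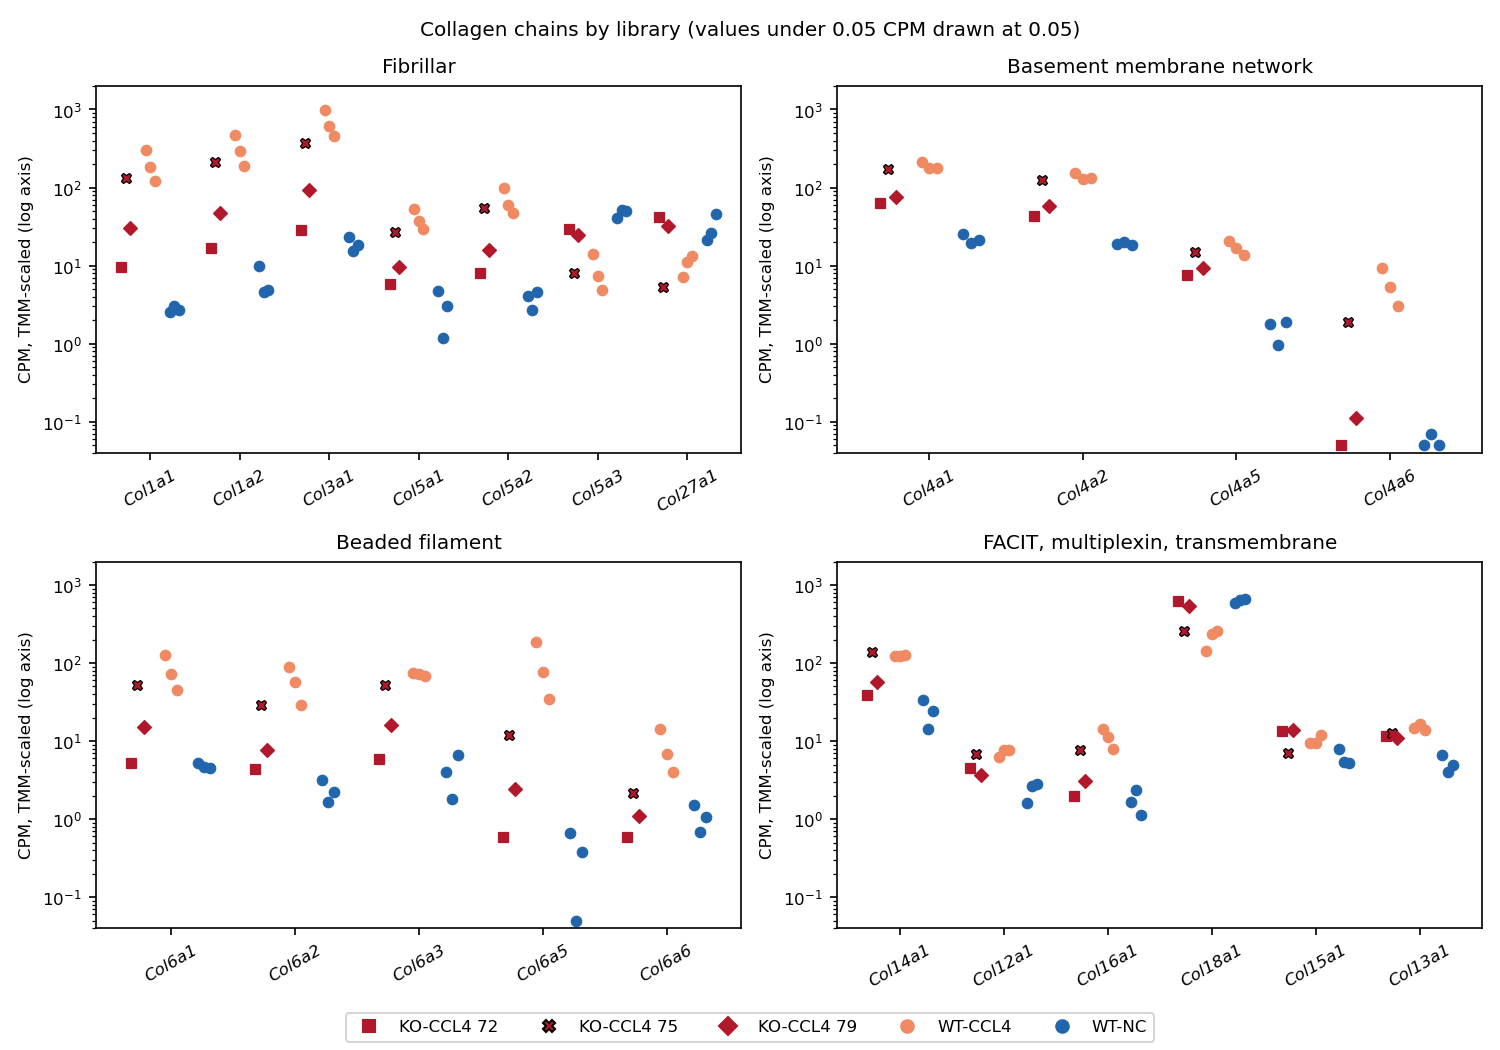
CPM (TMM-scaled, log axis) of 22 chains in each library, by structural class, with KO-CCL4, WT-CCL4 and WT-NC from left to right within a chain; the 3 KO-CCL4 libraries have their own symbols. KO-CCL4 75 lies above KO-CCL4 72 and 79 for the type I, III, IV and VI chains, and Col5a3, Col27a1 and Col18a1 are lower in WT-CCL4 than in WT-NC.

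The basement membrane chains Col4a1 and Col4a2, which form the type IV network found in nearly all tissues, ranked behind Col3a1 and Col1a1 in mean FPKM in WT-CCL4 and differed only 1.18 times among its libraries. Col4a1 (ENSMUSG00000031502, chr8:11198423-11312826) had 63.5, 175 and 75.7 CPM in KO-CCL4 72, 75 and 79, 209, 179 and 177 CPM in WT-CCL4 11, 12 and 13, and 25.1, 19.7 and 21.2 CPM in WT-NC 1, 2 and 3. Col4a2 (ENSMUSG00000031503, chr8:11312805-11449287) had 43.5, 125 and 58.3 CPM in KO-CCL4, 152, 129 and 131 CPM in WT-CCL4, and 18.8, 19.8 and 18.3 CPM in WT-NC. All KO-CCL4 libraries lay below all WT-CCL4 libraries and above all WT-NC libraries for both chains. KO-CCL4 75 missed the WT-CCL4 range by only a few CPM.

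Col4a1 rose by 3.10 ± 0.37 and Col4a2 by 2.86 ± 0.36 on the log2 scale in WT-CCL4 against WT-NC, and by 2.25 ± 0.36 and 1.99 ± 0.34 in KO-CCL4 against WT-NC. Both of these comparisons kept their calls for both chains with each library left out in turn. Between KO-CCL4 and WT-CCL4 the log2 fold changes were -0.85 ± 0.34 (adjusted p = 0.131) and -0.86 ± 0.33 (adjusted p = 0.118), and without KO-CCL4 75 both chains fell by 1.43 (adjusted p of 0.000827 and 0.00082). The genes are transcribed away from each other from start sites at position 11312826 on the minus strand and 11312805 on the plus strand of chromosome 8, so their annotated first exons share 22 bases. Their FPKM ratio, Col4a1 over Col4a2, was 1.35 ± 0.08 in KO-CCL4, 1.33 ± 0.01 in WT-CCL4 and 1.13 ± 0.17 in WT-NC (SD, n = 3 each).

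Col4a5 and Col4a6 are the neighbouring type IV genes of the X chromosome, 1308 bases apart. Col4a5 had 7.45, 14.8 and 9.29 CPM in KO-CCL4 72, 75 and 79, 20.4, 16.8 and 13.7 CPM in WT-CCL4 11, 12 and 13, and 1.79, 0.965 and 1.87 CPM in WT-NC 1, 2 and 3, and it rose by 3.45 ± 0.35 in WT-CCL4 against WT-NC and by 2.76 ± 0.35 in KO-CCL4 against WT-NC. Col4a6 had 0, 1.89 and 0.110 CPM in KO-CCL4, 9.26, 5.38 and 3.05 CPM in WT-CCL4, and 0, 0.0689 and 0 CPM in WT-NC, where 1 read was counted in all. Its rise in WT-CCL4 against WT-NC passed the test (adjusted p = 0.00435), and the ratio of 350 counts to 1 count, scaled to library size, was 286 with an exact 95% interval of 51.1 to 11344 that covers counting error only. All but 1 of the counts of Col4a6 came from CCl4-treated libraries, and those of KO-CCL4 came mostly from KO-CCL4 75. Col4a3 and Col4a4, the chains of the kidney filter, stayed at or under 1.01 CPM in every library and did not pass the test in any comparison.

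Type VI chains gave the only edgeR calls in KO-CCL4 against WT-CCL4 with all libraries, while DESeq2 also called Col3a1, Col16a1 and Col18a1. Col6a1, 1 of the 3 standard chains, had 5.25, 52.9 and 15.3 CPM in KO-CCL4 72, 75 and 79, 128, 71.3 and 44.5 CPM in WT-CCL4 11, 12 and 13, and 5.25, 4.69 and 4.53 CPM in WT-NC 1, 2 and 3. Col6a2 had 4.41, 29.3 and 7.64 CPM in KO-CCL4, 89.9, 57.6 and 28.7 CPM in WT-CCL4, and 3.19, 1.65 and 2.24 CPM in WT-NC. Col6a3, the long chain that completes the standard molecule, had 5.90, 52.6 and 16.2 CPM in KO-CCL4, 75.1, 72.5 and 68.0 CPM in WT-CCL4, and 3.99, 1.79 and 6.61 CPM in WT-NC. The Col6a3 level was nearly the same in the 3 WT-CCL4 libraries, whereas Col6a1 and Col6a2 differed about 3-fold among them (2.87 and 3.13 times between the lowest and highest library).

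These 3 chains rose by 4.07 ± 0.78, 4.63 ± 0.77 and 4.11 ± 0.77 on the log2 scale in WT-CCL4 against WT-NC. Their log2 fold changes in KO-CCL4 against WT-CCL4 were -1.72 (adjusted p = 0.132), -2.08 (adjusted p = 0.0809) and -1.53 (adjusted p = 0.158), and without KO-CCL4 75 they fell by 2.98, 3.28 and 2.70. Compared with WT-NC they rose in KO-CCL4 by 2.35 ± 0.74, 2.55 ± 0.72 and 2.58 ± 0.73, calls that did not pass without KO-CCL4 75 (1.09, 1.35 and 1.40, with adjusted p of 0.163, 0.089 and 0.0834).

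Col6a5 and Col6a6 encode chains built like Col6a3 that can take its place in the molecule, and they lie side by side on chromosome 9, 27909 bases apart. Col6a5 (ENSMUSG00000091345, chr9:105856070-105960643) had 0.596, 11.8 and 2.42 CPM in KO-CCL4 72, 75 and 79, 184, 76.4 and 34.1 CPM in WT-CCL4 11, 12 and 13, and 0.664, 0 and 0.373 CPM in WT-NC 1, 2 and 3. Col6a6 (ENSMUSG00000043719, chr9:105687809-105828160) had 0.596, 2.17 and 1.10 CPM in KO-CCL4, 14.2, 6.91 and 4.00 CPM in WT-CCL4, and 1.53, 0.689 and 1.07 CPM in WT-NC. Every KO-CCL4 library, KO-CCL4 75 included, was below every WT-CCL4 library for both genes, and KO-CCL4 overlapped WT-NC for both.

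Col6a5 rose by 8.10 ± 1.33 and Col6a6 by 2.93 ± 0.61 on the log2 scale in WT-CCL4 against WT-NC. Relative to WT-CCL4, in KO-CCL4 Col6a5 fell by 4.29 ± 1.03 (adjusted p = 0.0493) and Col6a6 by 2.68 ± 0.59 (adjusted p = 0.0458). Both calls were made in only 2 of the 9 fits that leave out a library, with adjusted p between 0.00253 and 0.201 for Col6a5 and between 0.00488 and 0.188 for Col6a6. Without KO-CCL4 75 they fell by 6.00 and 3.28. Between KO-CCL4 and WT-NC the log2 fold changes were 3.81 ± 1.26 for Col6a5 (adjusted p = 0.0567) and 0.25 ± 0.61 for Col6a6 (adjusted p = 0.792), and neither passed. The next gene in the cluster, Col6a4, had at most 11 counts in a library and was not tested.

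The level of Col6a5 moved with markers of other cell types across the WT-CCL4 libraries. The 10 portal fibroblast and mesothelial markers summed to 11.6, 53.4 and 20.5 CPM in KO-CCL4 72, 75 and 79, 233, 121 and 63.5 CPM in WT-CCL4 11, 12 and 13, and 7.91, 7.65 and 8.16 CPM in WT-NC 1, 2 and 3, the same order of WT-CCL4 libraries as for Col6a5, Col1a1 and Col3a1. Of the 9 tested, 8 rose in WT-CCL4 against WT-NC and 1 fell in KO-CCL4 against WT-CCL4 by edgeR, or 7 without KO-CCL4 75. In the latter comparison with all libraries, 7 were lower at an unadjusted p under 0.05 in edgeR, and 6 by DESeq2. Over all genes 29.5% rose in the first comparison and 1.61% fell in the second, or 20.4% without KO-CCL4 75, and the counts of the other marker lists have the same background. The mesothelial marker Upk3b had 1.67, 10.8 and 2.97 CPM in KO-CCL4, 52.6, 26.4 and 15.0 CPM in WT-CCL4, and 0 counts in WT-NC. Exocrine pancreas markers ran the same way in WT-CCL4, summing to 35.7, 223 and 63.7 CPM in KO-CCL4, 1441, 461 and 16.7 CPM in WT-CCL4, and 13.9, 16.8 and 16.7 CPM in WT-NC. In WT-CCL4 13 the Col6a5 level was 34.1 CPM, and 1 of the 10 pancreas markers was at 0, against 8, 8 and 2 in WT-NC. The lipase gene Pnlip had 40 counts in WT-CCL4 13, against 0, 0 and 7 in WT-NC. Of the 9 tested pancreas markers, 8 rose in WT-CCL4 against WT-NC and 0 were called in KO-CCL4 against WT-CCL4 by edgeR (3 lower at an unadjusted p under 0.05, and 1 lower by DESeq2). Other lists descended over WT-CCL4 11, 12 and 13 as well. Macrophage markers summed to 6410, 3904 and 2566 CPM there, and bile duct markers to 418, 246 and 169 CPM. Endothelial markers summed to 830, 728 and 701 CPM, and adipose markers to 83.4, 53.6 and 40.9 CPM. Of the 6 adipose markers, 4, 3 and 4 were at 0 in WT-CCL4 11, 12 and 13. The stellate and hepatocyte sums ascended. The part of these cells in the collagen values was not tested.

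**Figure D4:**
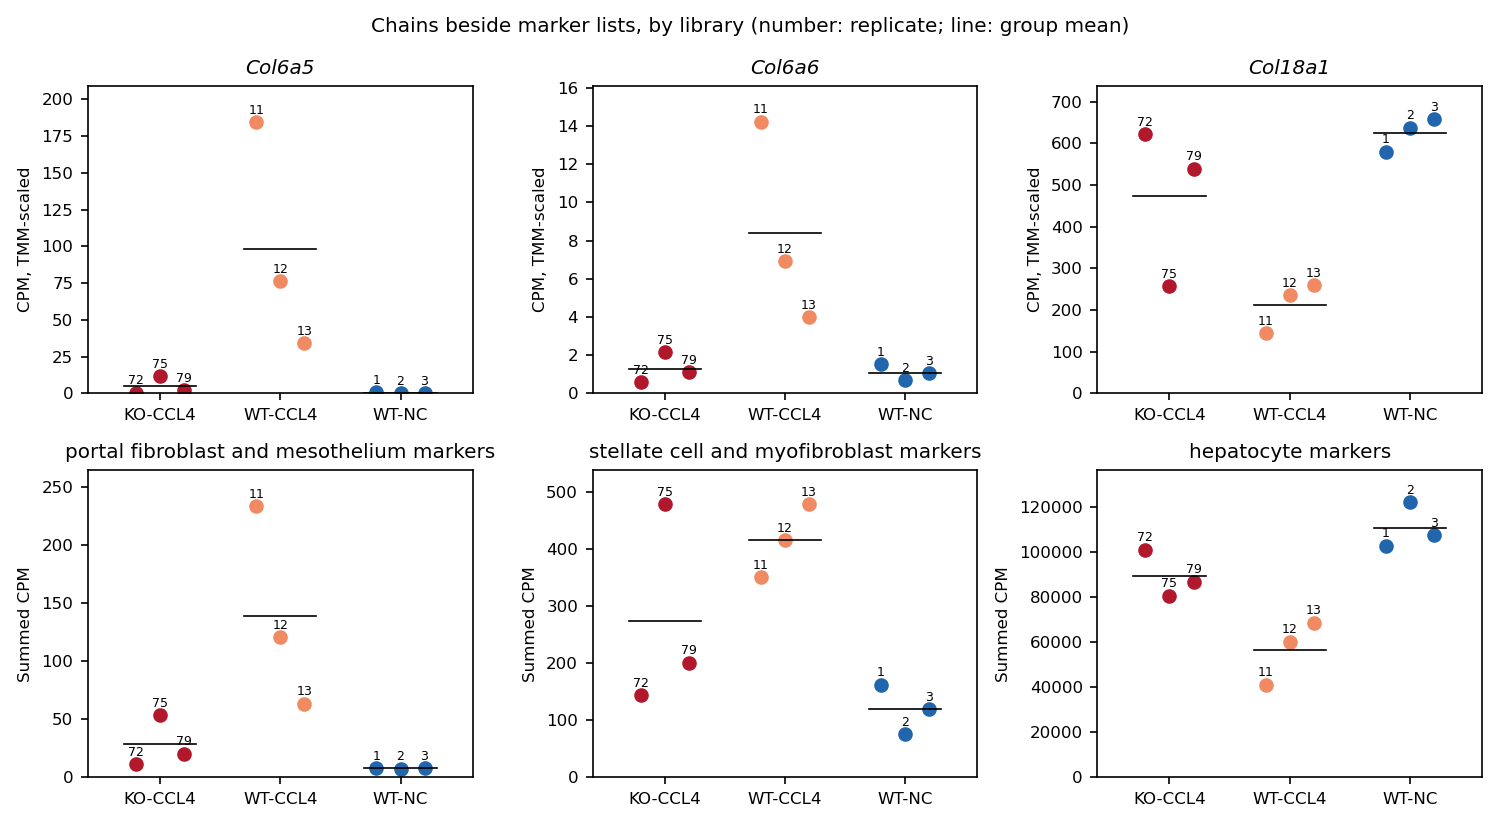
CPM of Col6a5, Col6a6 and Col18a1 (top) and summed CPM of 3 marker lists of 10 genes each (bottom) by library, with KO-CCL4, WT-CCL4 and WT-NC from left to right, replicate numbers beside the points and group means as lines. Col6a5 and Col6a6 descend over WT-CCL4 11, 12 and 13 like the portal fibroblast and mesothelial list, whereas the stellate sum is 351, 416 and 479 CPM there, of which Reln alone gives 115, 178 and 209 CPM. The macrophage, bile duct, endothelial and exocrine pancreas sums, which are not drawn, also descend there. So does the adipose sum, in which 4, 3 and 4 of the 6 markers were at 0.

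Stellate cell and myofibroblast markers, the cells classically tied to type I collagen, summed to 144, 479 and 201 CPM in KO-CCL4 72, 75 and 79, 351, 416 and 479 CPM in WT-CCL4 11, 12 and 13, and 163, 75.2 and 120 CPM in WT-NC 1, 2 and 3. Of 10 markers, 7 rose in WT-CCL4 against WT-NC, and 0 were called in KO-CCL4 against WT-CCL4 by edgeR (1 lower at an unadjusted p under 0.05, and 0 by DESeq2), with 7 lower without KO-CCL4 75. Within WT-CCL4 this sum ran opposite to Col1a1, Col1a2 and Col3a1, but its members differed: Reln, the largest of the markers shown here, had 115, 178 and 209 CPM in WT-CCL4 11, 12 and 13, Des 11.3, 9.58 and 8.48 CPM, and Acta2 9.51, 9.93 and 9.90 CPM. Endothelial markers summed to 464, 667 and 486 CPM in KO-CCL4, 830, 728 and 701 CPM in WT-CCL4, and 279, 245 and 321 CPM in WT-NC, and 8 of 10 rose in WT-CCL4 against WT-NC. Macrophage markers summed to between 393 and 3201 CPM in KO-CCL4, 2566 and 6410 CPM in WT-CCL4, and 236 and 310 CPM in WT-NC, and 10 of 10 rose in WT-CCL4 against WT-NC. Bile duct markers summed to between 64.8 and 195 CPM in KO-CCL4, 169 and 418 CPM in WT-CCL4, and 64.0 and 68.8 CPM in WT-NC, and 3 of 6 rose. For the endothelial, macrophage and bile duct lists edgeR called 0 members in KO-CCL4 against WT-CCL4, with 5, 2 and 1 lower at an unadjusted p under 0.05, 3, 1 and 1 lower by DESeq2, and 7, 8 and 3 lower without KO-CCL4 75. The part of these cells in the type I, III and IV levels was not tested. Of the 2 adipose markers tested, 1 rose and 1 fell in WT-CCL4 against WT-NC, and of the others Adipoq had at most 2 counts in a library, Plin1 at most 3 and Lep 0.

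Among FACIT chains, which coat the surface of fibrils, Col14a1 (chr15:55307750-55520803) was the most abundant. It had 38.5, 139 and 56.5 CPM in KO-CCL4 72, 75 and 79, 121, 123 and 128 CPM in WT-CCL4 11, 12 and 13, and 33.4, 14.3 and 24.3 CPM in WT-NC 1, 2 and 3. KO-CCL4 75 exceeded every WT-CCL4 library for this chain, and the WT-CCL4 libraries differed only 1.06 times. Col14a1 rose by 2.37 ± 0.47 in WT-CCL4 against WT-NC and by 1.70 ± 0.46 in KO-CCL4 against WT-NC, where it did not pass without KO-CCL4 75 (0.99, adjusted p = 0.0543) and was called in 4 of the 9 fits that leave out a library. Its log2 fold change in KO-CCL4 against WT-CCL4 was -0.67 ± 0.45 (adjusted p = 0.318), and it fell by 1.38 without KO-CCL4 75 (adjusted p = 0.01). Col12a1, a related fibril-coating chain, averaged 4.98 ± 1.61 CPM in KO-CCL4, 7.22 ± 0.78 CPM in WT-CCL4 and 2.33 ± 0.64 CPM in WT-NC (SD, n = 3 each), and rose by 1.63 ± 0.31 in WT-CCL4 against WT-NC. Col16a1 averaged 4.23 ± 3.00 CPM in KO-CCL4, 11.2 ± 3.29 CPM in WT-CCL4 and 1.71 ± 0.61 CPM in WT-NC, and rose by 2.71 ± 0.52 in WT-CCL4 against WT-NC. Its log2 fold change in KO-CCL4 against WT-CCL4 was -1.39 ± 0.49 (adjusted p = 0.0979), and it fell by 2.14 without KO-CCL4 75, the only library whose omission gave a call.

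Like Col5a3, the multiplexin Col18a1 fell in WT-CCL4 against WT-NC, where the other chains called by edgeR rose. It encodes the core protein of a basement membrane proteoglycan whose end fragment is endostatin, and hepatocytes are a known source of it in the liver. Col18a1 (ENSMUSG00000001435, chr10:77052178-77166548) had 621, 257 and 539 CPM in KO-CCL4 72, 75 and 79, 144, 235 and 259 CPM in WT-CCL4 11, 12 and 13, and 580, 637 and 657 CPM in WT-NC 1, 2 and 3. KO-CCL4 72 lay within the WT-NC range and KO-CCL4 75 within the WT-CCL4 range. Col18a1 fell by 1.55 ± 0.34 on the log2 scale in WT-CCL4 against WT-NC (adjusted p = 0.0049). Its log2 fold change in KO-CCL4 against WT-CCL4 was 1.15 ± 0.34 (adjusted p = 0.0687 by edgeR and 0.0113 by DESeq2), and it rose by 1.45 without KO-CCL4 75 (adjusted p = 0.00261). Between KO-CCL4 and WT-NC it was -0.40 ± 0.33 (adjusted p = 0.394).

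Hepatocyte markers moved in the same direction as Col18a1: they summed to 101083, 80655 and 86917 CPM in KO-CCL4 72, 75 and 79, 41093, 60210 and 68610 CPM in WT-CCL4 11, 12 and 13, and 102856, 122234 and 107541 CPM in WT-NC 1, 2 and 3. Of the 10, 9 fell in WT-CCL4 against WT-NC and 4 rose in KO-CCL4 against WT-CCL4, where 25.0% of all genes fell and 3.46% rose, and their part in the Col18a1 values was not tested. The other multiplexin, Col15a1, averaged 11.4 ± 3.81 CPM in KO-CCL4, 10.2 ± 1.34 CPM in WT-CCL4 and 6.22 ± 1.53 CPM in WT-NC (SD, n = 3 each). Its log2 fold change was 0.72 ± 0.29 in WT-CCL4 against WT-NC (adjusted p = 0.0611). There edgeR without KO-CCL4 75 and limma called Col15a1 higher, while DESeq2 did not call it. In KO-CCL4 against WT-NC it was 0.88 ± 0.29 (adjusted p = 0.0579), or 1.13 without KO-CCL4 75 (adjusted p = 0.0114). Col13a1, a transmembrane chain of cell contacts, differed at most 1.19 times among the libraries of either CCl4-treated group. It averaged 11.8 ± 0.92 CPM in KO-CCL4, 14.9 ± 1.29 CPM in WT-CCL4 and 5.18 ± 1.28 CPM in WT-NC, and it rose by 1.52 ± 0.21 in WT-CCL4 against WT-NC and by 1.19 ± 0.20 in KO-CCL4 against WT-NC, in each case also with any library left out.

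The remaining chains were scarce. Of the tested chains, Col4a3, Col4a4, Col7a1, Col8a1, Col9a3, Col20a1 and Col25a1 stayed under 1 FPKM on average in every group and passed in no comparison with all libraries. Without KO-CCL4 75 the short chain Col8a1 passed in KO-CCL4 against WT-CCL4, where it fell by 2.40 (adjusted p = 0.0132), and in WT-CCL4 against WT-NC, where it rose by 1.36 (adjusted p = 0.0335). A further 13 chains had at most 15 counts in any library and did not reach the filter on low counts. Of these, Col9a1, Col9a2, Col10a1, Col19a1 and Col26a1 had 0 counts in every library. The rest were Col2a1, Col6a4, Col8a2, Col11a1, Col17a1, Col22a1, Col23a1 and Col28a1.

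Most genes that process collagen rose with CCl4 in WT animals. Of 21 tested genes of collagen modification and folding, 14 rose and 2 fell in WT-CCL4 against WT-NC, where 29.5% of all genes rose and 25.0% fell. Serpinh1, the collagen chaperone HSP47, averaged 36.4 ± 15.6 CPM in KO-CCL4, 74.7 ± 16.7 CPM in WT-CCL4 and 5.23 ± 1.46 CPM in WT-NC (SD, n = 3 each), and rose by 3.83 ± 0.36 on the log2 scale in WT-CCL4 against WT-NC and by 2.80 ± 0.35 in KO-CCL4 against WT-NC. P4ha1, a catalytic subunit of prolyl hydroxylase, rose by 1.94 ± 0.27, and Crtap, a part of the prolyl 3-hydroxylase complex, by 2.45 ± 0.35 in WT-CCL4 against WT-NC. Mia3, which loads procollagen into export vesicles, fell by 1.59 ± 0.20 in WT-CCL4 against WT-NC and by 1.28 ± 0.20 in KO-CCL4 against WT-NC. Tmem38b, a cation channel of the endoplasmic reticulum, fell by 0.85 ± 0.16 in WT-CCL4 against WT-NC and was the list's only call by edgeR in KO-CCL4 against WT-CCL4, where it rose by 0.66 ± 0.16 (adjusted p = 0.0488), a call made in 2 of the 9 fits that leave out a library. At an unadjusted p under 0.05 edgeR counted 4 of the list higher and 6 lower there, and DESeq2 called 2 higher and 4 lower. It averaged 55.0 ± 2.97 CPM in KO-CCL4, 34.7 ± 6.37 CPM in WT-CCL4 and 62.8 ± 2.51 CPM in WT-NC. Fkbp14, a prolyl isomerase, averaged 14.2 ± 0.68 CPM in KO-CCL4, 9.65 ± 2.49 CPM in WT-CCL4 and 6.59 ± 0.52 CPM in WT-NC, and rose by 1.11 ± 0.21 in KO-CCL4 against WT-NC. In that comparison 9 genes of the list rose and 1 fell, where 14.0% of all genes rose and 8.98% fell. Without KO-CCL4 75, 3 rose and 8 fell in KO-CCL4 against WT-CCL4, where 17.2% of all genes rose and 20.4% fell.

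Of 11 tested genes of propeptide cleavage and cross-linking, 10 rose and 0 fell in WT-CCL4 against WT-NC by edgeR, where 29.5% and 25.0% of all genes did. No gene of the list fell at an unadjusted p under 0.05 or by DESeq2, and 1 fell by edgeR without KO-CCL4 75. In KO-CCL4 against WT-NC 4 rose, where 14.0% of all genes did. Loxl2, a cross-linking lysyl oxidase, averaged 7.34 ± 5.89 CPM in KO-CCL4, 19.3 ± 3.03 CPM in WT-CCL4 and 0.902 ± 0.393 CPM in WT-NC (SD, n = 3 each), and rose by 4.41 ± 0.61 in WT-CCL4 against WT-NC. Lox, the founding member of that family, rose by 5.63 ± 0.89 and Pcolce, an enhancer of procollagen cleavage, by 2.49 ± 0.45 in the same comparison. Loxl4, a further lysyl oxidase, averaged 5.55 ± 2.99 CPM in KO-CCL4, 3.89 ± 1.02 CPM in WT-CCL4 and 0.535 ± 0.328 CPM in WT-NC, and rose by 3.36 ± 0.58 in KO-CCL4 against WT-NC. Between KO-CCL4 and WT-CCL4 edgeR called 0 of the list, with 6 lower and 1 higher at an unadjusted p under 0.05, while DESeq2 called 4 lower and 1 higher, and without KO-CCL4 75 edgeR called 8 lower and 1 higher. Over all genes 20.4% fell and 17.2% rose in the fit without KO-CCL4 75.

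Of 7 tested collagen receptors, 6 rose in WT-CCL4 against WT-NC and 4 in KO-CCL4 against WT-NC, where 29.5% and 14.0% of all genes rose. Between KO-CCL4 and WT-CCL4 edgeR called 0, with 2 lower at an unadjusted p under 0.05 and 2 by DESeq2, and 4 lower without KO-CCL4 75, where 20.4% of all genes fell. Ddr1, a receptor kinase that binds collagen, rose by 3.09 ± 0.43 in WT-CCL4 against WT-NC and by 2.31 ± 0.43 in KO-CCL4 against WT-NC. Mrc2, which takes up collagen for breakdown, rose by 4.06 ± 0.66 and 2.50 ± 0.64 in these comparisons. Itga1, the alpha subunit of a collagen-binding integrin, averaged 40.4 ± 3.37 CPM in KO-CCL4, 38.4 ± 5.28 CPM in WT-CCL4 and 18.3 ± 3.59 CPM in WT-NC (SD, n = 3 each), so its means in both CCl4 groups differed by less than their spread.

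All 9 collagenases and inhibitors of the list rose in WT-CCL4 against WT-NC, and 4 rose in KO-CCL4 against WT-NC, or 1 without KO-CCL4 75, where 29.5%, 14.0% and 9.93% of all genes rose. Mmp13, the main interstitial collagenase of rodents, averaged 2.60 ± 2.49 CPM in KO-CCL4, 32.6 ± 29.6 CPM in WT-CCL4 and 0.0356 ± 0.0616 CPM in WT-NC (SD, n = 3 each). It fell by 3.63 ± 0.87 on the log2 scale in KO-CCL4 against WT-CCL4 (adjusted p = 0.0493), a call made in 2 of the 9 fits that leave out a library. Timp3, an inhibitor of matrix proteases held in the matrix, averaged 30.4 ± 6.75 CPM in KO-CCL4, 98.7 ± 25.6 CPM in WT-CCL4 and 35.2 ± 5.26 CPM in WT-NC, and fell by 1.70 ± 0.24 in KO-CCL4 against WT-CCL4 (adjusted p = 0.0168), a call made in 6 of those 9 fits. Mmp14, a membrane-bound collagenase, rose by 1.70 ± 0.26 in WT-CCL4 against WT-NC and by 1.40 ± 0.26 in KO-CCL4 against WT-NC. Timp1, another inhibitor, rose by 3.21 ± 0.84 in KO-CCL4 against WT-NC, with 2.76 without KO-CCL4 75, which did not pass (adjusted p = 0.0617). Between KO-CCL4 and WT-CCL4 edgeR called 2 of the list lower, where 1.61% of all genes fell. At an unadjusted p under 0.05 it counted 5 lower, and DESeq2 called 4 lower. Without KO-CCL4 75, 8 of the 9 genes fell in KO-CCL4 against WT-CCL4, where 20.4% of all genes fell.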

How the data were processed

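Messenger RNA of 9 mouse liver samples was analysed in 3 groups of 3, assigned by sample title. Per the file headers, 1 deposited table holds raw gene counts beside the authors' FPKM. The submitters' processing notes name HISAT2 2.0.4 and StringTie 1.3.0, with builds mm10 and GRCm38.p4. The counter and its use of strand are stated nowhere in the labels, and 13 chains share exon bases with another gene (at most 6.07%). Within a gene the deposited FPKM were proportional to count over library total (to 0.00105%, over 9282 genes with at least 50 counts per library). The median gene therefore shifts by 0.38, -0.32 and 0.09 on the log2 scale under total-count scaling in WT-CCL4 against WT-NC, KO-CCL4 against WT-CCL4 and KO-CCL4 against WT-NC, against 0.04, -0.04 and 0.03 under TMM.

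Counts were tested with edgeR 4.0.16 in R 4.3.3 (TMM, filterByExpr, group means over 9 libraries, quasi-likelihood F test, Benjamini-Hochberg threshold 0.05). The SE was the log2 fold change divided by the square root of F. CPM use TMM-scaled totals. Alternatives were DESeq2 1.42.0, its size factors, no filter, limma 3.58.1 with trend on log2(FPKM + 1) or log2(FPKM + 0.1) for genes at 1 FPKM in 3 libraries, only the 6 samples compared, and leaving out each library. Scripts were tested on simulated data.

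Chains with a mean of 1 FPKM in a group or a call are named (24), with library values from 5 FPKM (14 chains), and from each pathway list the called genes with the smallest p, at most 3 per comparison and direction. Members, lists and tests were chosen with earlier results of these data known. Whether samples of a group are separate animals is not stated, and the p-values cover only their spread, which may be technical. The variance between libraries of a group was 13.8 to 186 times that of count sampling, so all were counted as separate libraries. Intervals and floors cover counting error only.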

Additional observations from a re-analysis of the deposited data

How the results depend on the processing

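The calls in WT-CCL4 against WT-NC changed least: leaving out each library in turn gave 19 to 22 collagen chains higher and 2 to 3 lower (all genes 3411 to 4601 and 2770 to 3921). In KO-CCL4 against WT-CCL4 it gave 0 to 3 chains higher and 0 to 18 lower (all genes 3 to 2495 and 2 to 2958), the highest values being those without KO-CCL4 75 and 0 chains being lower without KO-CCL4 72 or 79, WT-CCL4 11 or 12, or any WT-NC library. In KO-CCL4 against WT-NC it gave 5 to 17 higher and 0 lower (all genes 725 to 2394 and 539 to 1363), with 5 without each WT-NC library, 8 without WT-CCL4 12 and 9 without KO-CCL4 75. Where 2 libraries of a group remained, the spread was pooled over groups.

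For chains lower in KO-CCL4 against WT-CCL4, 2 in the reported fit, the count was 1 with DESeq2 size factors, 6 with DESeq2, 1 with limma at either pseudocount and 0 with only the 6 samples compared, and DESeq2 called 1 higher. For chains higher in KO-CCL4 against WT-NC, 14 as reported, it was 4 with limma on log2(FPKM + 1), 6 on log2(FPKM + 0.1) and 9 with the 6 samples compared. Over all genes, KO-CCL4 against WT-CCL4 gave 489 higher and 228 lower as reported, 1512 and 1258 with DESeq2, 306 and 395 with limma on log2(FPKM + 1), 219 and 152 on log2(FPKM + 0.1), and 25 and 5 with the 6 samples compared. WT-CCL4 against WT-NC gave 4166 and 3527 as reported, against 3844 and 2054 with limma on log2(FPKM + 1) and 3866 and 2045 on log2(FPKM + 0.1). KO-CCL4 against WT-NC gave 1978 and 1269, against 696 and 1015, and 1117 and 1055. The limma fits tested fewer genes and followed total-count scaling.

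Uncalled log2 fold changes that turned sign, with their range when each library was left out, were, in KO-CCL4 against WT-CCL4, Col11a2 (-0.99 to 0.030, the highest without WT-CCL4 11), Col15a1 (-0.093 and -0.17 with limma) and Itga1 (-0.026 to 0.17, the lowest without WT-CCL4 11, and -0.17 and -0.20 with limma). In KO-CCL4 against WT-NC they were Col27a1 (-0.74 to 0.26, with 0.16 without WT-NC 3 and 0.26 without KO-CCL4 75), Col6a6 (-0.36 to 0.58) and Tgfbr2 (-0.36 to 0.56), both lowest without KO-CCL4 75. The cause was not tested. For the named chains, 914 other values stayed on the same side of the threshold, 82 lost a call and 40 gained one. No paired analysis was possible because the groups share no replicate numbers. Depth limits chains under 0.207 CPM.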
